A study of Mus musculus with 27 samples.

Results

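The Cyp2c enzymes of the mouse are a subfamily of the cytochromes P450, haem proteins of the endoplasmic reticulum that insert 1 oxygen atom into drugs, steroids and fatty acids. Of 10 Cyp2c genes taken up (Cyp2c29, Cyp2c37, Cyp2c38, Cyp2c39, Cyp2c40, Cyp2c44, Cyp2c50, Cyp2c54, Cyp2c55 and Cyp2c70), 9 had a probe set annotated to that gene alone, out of 18820 genes with such a probe set on the array. The probe set of a gene was chosen by its mean over all 27 arrays (the highest where there are several), but each of the 9 genes had only 1. Cyp2c40 had only a probe set shared by 4 genes and is described through it. Cyp2c38 stayed under the intensity filter, so that 8 members were tested among 10810 genes.

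The livers of 2-week-old C57Bl/6J offspring were profiled on the Affymetrix Mouse Gene 1.1 ST platform, with 1 array for each pup. There were 6 males (m-WS) and 6 females (f-WS) of dams on a Western-style high fat diet (WSD; 45% of energy as fat, 196.5 mg cholesterol per kg, 4.73 kcal/g), and 6 males (m-LF) and 9 females (f-LF) of dams on a low fat control diet (LFD; 10% of energy as fat, 18.0 mg cholesterol per kg, 3.85 kcal/g). Dams ate their diet for 6 weeks ahead of mating and throughout pregnancy and suckling, and all sires were on control diet. Litters were brought to a similar size after birth, though some shrank further by natural circumstances. The pups, taken before weaning, were exposed through the dam. The labels do not give the dam of each pup, and p-values measure the spread between pups, some of which may be littermates.

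Cyp2c genes are expressed mainly in hepatocytes, several of them most strongly in those around the central vein, and some also in gut and kidney. Besides clearing drugs, many of these enzymes turn arachidonic and linoleic acid into epoxides or hydroxy acids, which act as local signals. In adult mouse liver, nuclear receptors for foreign compounds (CAR and PXR) induce some family members, and several differ between the sexes.

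The values are log2 intensities. The medians of the 27 arrays lay between 5.34 and 5.43, and the number of arrays limits the precision. The hepatocyte markers averaged 12.32 to 12.48 in m-WS pups and 12.20 to 12.49 in m-LF pups, and 12.36 to 12.46 in f-WS pups and 12.33 to 12.49 in f-LF pups. Uty, Eif2s3y and Kdm5d, all on the Y chromosome, were at 6.98 or above in every male and at 3.70 or below in every female. Xist, the RNA of the inactive X chromosome, was at 11.67 or above in every female and between 3.25 and 4.50 in 10 males, but at 7.92 in m-WS1 and at 9.30 in m-LF6, which stand apart. The male calls below and the comparisons between the sexes are also given without these pups, by value for the members and by which calls changed for other genes. Each array name holds a further number of unstated meaning (39, 40 and 48 for WSD, 37, 49 and 50 for LFD, with 39 on females only), so that number and maternal diet cannot be told apart.

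All the family's genes lie on chromosome 19 (GRCm38.p6). Cyp2c37 (39992424 to 40012243), Cyp2c54 (40037939 to 40073845) and Cyp2c50 (40089679 to 40113955) are direct neighbours in the main cluster, Cyp2c70 follows from 40153361, Cyp2c29 lies upstream from 39287044, and Cyp2c44 stands outside the cluster from 44005022. The bases before the start of Cyp2c37, Cyp2c50 and Cyp2c29 are shown because the first pair fell in males and the last fell in females. They are RefSeq sequence of build GRCm38.p6, plus strand, at chr19:39992174-39992423, chr19:40089429-40089678 and chr19:39286835-39287043, and each run ends before the first base annotated as transcribed. Capitals mark matches to 5 motifs searched on both strands: CAAAGTNCA (a form of the site of HNF4A, a factor of hepatocyte identity), TTGCNNAA (C/EBP), AGGTCA and AGTTCA (half-sites of nuclear receptors) and TATAAA (the TATA box).
Cyp2c37: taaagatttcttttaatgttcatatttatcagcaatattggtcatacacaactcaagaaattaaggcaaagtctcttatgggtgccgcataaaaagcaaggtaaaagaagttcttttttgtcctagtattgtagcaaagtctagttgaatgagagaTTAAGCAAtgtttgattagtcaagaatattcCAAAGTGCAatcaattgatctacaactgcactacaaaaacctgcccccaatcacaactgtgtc
Cyp2c50: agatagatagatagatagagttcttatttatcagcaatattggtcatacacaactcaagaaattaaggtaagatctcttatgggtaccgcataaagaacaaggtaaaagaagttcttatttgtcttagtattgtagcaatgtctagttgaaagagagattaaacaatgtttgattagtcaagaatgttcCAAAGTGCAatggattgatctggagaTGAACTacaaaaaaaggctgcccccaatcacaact
Cyp2c29: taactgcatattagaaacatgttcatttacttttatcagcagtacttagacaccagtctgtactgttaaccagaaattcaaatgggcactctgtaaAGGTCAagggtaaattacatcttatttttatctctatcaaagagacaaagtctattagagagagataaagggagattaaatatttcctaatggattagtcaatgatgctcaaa

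Over windows of 300 bases (250 before and 50 after the start), Cyp2c37 and Cyp2c50 shared 264 of 305 aligned positions (86.6% identity), against 60.4% for Cyp2c29 with Cyp2c50 and 57.9% for Cyp2c29 with Cyp2c37. The letters CAAAGTNCA lie at -63 from the start in Cyp2c37 and at -61 in Cyp2c50, with TTGCNNAA at -94 on the minus strand in Cyp2c37 only and AGTTCA at -35 on the minus strand in Cyp2c50 only. The window of Cyp2c29 holds AGGTCA at -154 and TATAAA at -19, the latter past the end of the printed run. CAAAGTNCA was also found before Cyp2c40, Cyp2c65, Cyp2c67, Cyp2c68, Cyp2c69 and Cyp2c70, in all in 8 of 14 windows of 13 family genes, against 1.41% of the 32851 promoter windows of the mouse. Several of these family windows are much alike (91.1% identity for Cyp2c68 with Cyp2c69 and 80.9% for Cyp2c40 with Cyp2c69). The 8 matches are therefore not independent, and no enrichment is drawn from them. TTGCNNAA is in 10.8%, AGGTCA in 16.3%, AGTTCA in 14.0% and TATAAA in 13.6% of all windows. No match in the family overlapped another, and a match describes the letters of the window, not a bound site. No window was used for Cyp2c54 or Cyp2c44.

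In male offspring, 3 of the 8 members tested fell with maternal WSD and none rose, where 2.6% of all 10810 genes fell and 3.02% rose. A gene passed, and is said to rise or fall, at a limma p of 0.01 or below, and p-values adjusted over all genes (Benjamini-Hochberg) stand beside it. At an adjusted p under 0.05, 2 of the 8 passed in males and none in females, where 0.731% and 0.305% of all genes did. The 3 were the adjacent genes Cyp2c37, Cyp2c54 and Cyp2c50. In female offspring, 1 of 8 fell, Cyp2c29, and none rose, where 1.59% of all genes fell and 3.6% rose. The median change of the 8 members was -0.13 in males and -0.19 in females on the log2 scale, beside 0.0073 and 0.014 over all genes tested. No member had every WSD pup below every LFD pup, as 0.537% of all genes did in males and 0.0925% in females. Over all genes the balance of calls turned with the scaling: of those that passed, 53.8% rose in males and 69.3% in females, against 42% and 42.9% with arrays centred on their medians and 49.1% and 47.7% with repeated quantile normalization. The 4 calls of members stood under both, and with quantile normalization Cyp2c70 also passed in females. The family was taken up with its response in these arrays known, so that these counts are a description.

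**Figure D1:**
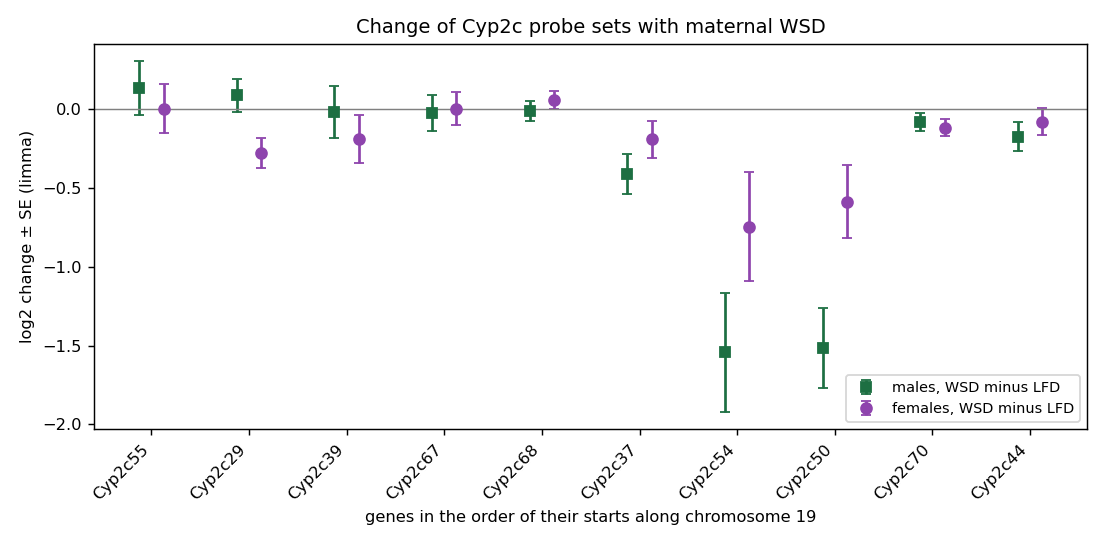
Log2 change with maternal WSD (WSD minus LFD, limma, bars ± SE) of 8 family members and of Cyp2c67 and Cyp2c68, for males (squares) and females (circles), in the order of the gene starts along chromosome 19. Cyp2c54 and Cyp2c50 stand lowest in both sexes, at -1.54 and -1.52 in males, and the genes on either side of the trio they form with Cyp2c37 lie nearer to 0.

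Cyp2c50 makes epoxides of arachidonic acid and linoleic acid. It ranged over 7.66, 7.89 and 8.60 (lowest, median, highest) in m-WS pups, against 8.57, 9.49 and 10.25 in m-LF pups. The groups met at a single point, since m-LF6 at 8.57 lay just under m-WS5 at 8.60, and 5 of 6 m-WS pups lay below every m-LF pup. The mean was 7.95 ± 0.35 in m-WS pups and 9.46 ± 0.53 in m-LF pups (SD, n = 6 each), a log2 change of -1.52 ± 0.25 (SE), or 2.86-fold lower (limma, adjusted p = 0.00448). By the size of p this was rank 4 of the 10810 genes, and an exact permutation test of the gene alone gave p = 0.00433 (2-sided, smallest possible p 0.00216). Without m-WS1 and m-LF6 the change was -1.64 (adjusted p = 0.00234), and without m-LF5, the highest pup, it was -1.36 (adjusted p = 0.0150).

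Cyp2c54, between Cyp2c37 and Cyp2c50 on the chromosome, codes for another epoxygenase of arachidonic acid. It ranged over 5.59, 5.89 and 6.56 in m-WS pups, against 6.34, 7.32 and 9.53 in m-LF pups. Again m-LF6 alone fell within the range of m-WS pups, below m-WS5, while m-LF5 at 9.53 stood far above the next m-LF pup at 7.63. The mean was 5.96 ± 0.32 in m-WS pups and 7.50 ± 1.09 in m-LF pups (SD, n = 6 each). The change was -1.54 ± 0.38 (SE), or 2.91-fold lower (limma, adjusted p = 0.0467; exact permutation p = 0.00433). It was -1.14 without m-LF5 (adjusted p = 0.0841) and -1.76 without m-WS1 and m-LF6 (adjusted p = 0.0194).

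Cyp2c37 hydroxylates arachidonic acid and, in adult mouse liver, is induced through CAR. It ranged over 11.08, 11.28 and 11.62 in m-WS pups, against 11.59, 11.69 and 11.85 in m-LF pups, and m-LF6 at 11.59 was once more the only m-LF pup under m-WS5. The mean was 11.31 ± 0.19 in m-WS pups and 11.72 ± 0.10 in m-LF pups (SD, n = 6 each). The change of -0.41 ± 0.13 (SE), or 1.33-fold lower, passed, but not after adjustment (limma, adjusted p = 0.107; exact permutation p = 0.00433), and without m-WS1 and m-LF6 it passed at -0.44 (adjusted p = 0.110). It did not pass without m-WS2 (-0.37, adjusted p = 0.207).

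For all of these 3 genes m-WS5 was the highest m-WS pup and m-LF6 the lowest m-LF pup. Probe sequences were not used, so that hybridization of a probe to transcripts of a similar neighbour was not tested. In bulk liver, fewer cells of a type and less RNA per cell cannot be told apart.

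**Figure D2:**
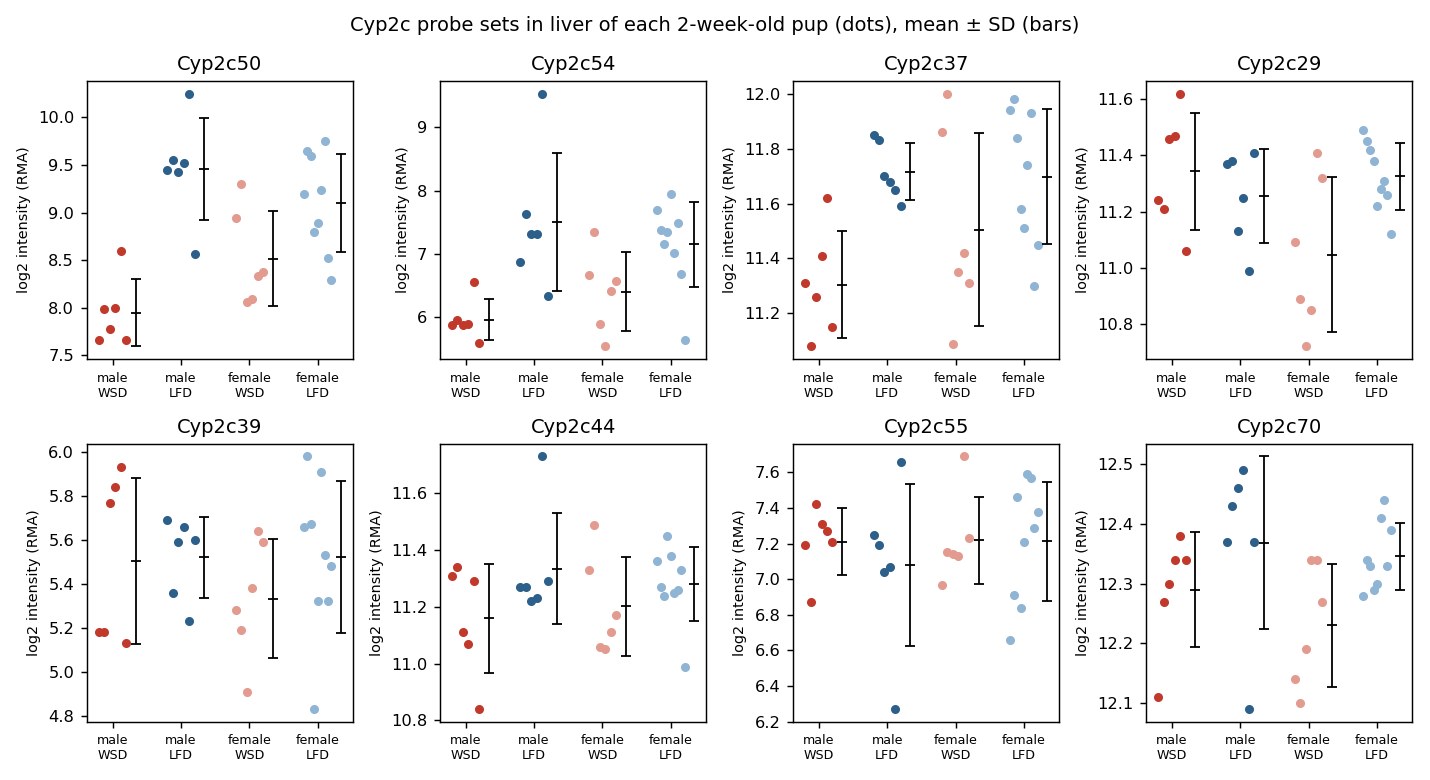
Log2 intensity of 8 Cyp2c probe sets in each pup (dots) with the group mean and SD (bars), 1 panel per gene with its own axis, for 6 male WSD, 6 male LFD, 6 female WSD and 9 female LFD pups. For Cyp2c50, Cyp2c54 and Cyp2c37 a single male LFD pup lies in the range of the male WSD pups, and for the remaining genes the diet groups overlap by more pups.

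In females the same trio lay lower with WSD but did not pass the test. Cyp2c50 ranged over 8.06, 8.35 and 9.30 in f-WS pups, against 8.29, 9.20 and 9.75 in f-LF pups, with a change of -0.59 ± 0.23 (SE; limma, adjusted p = 0.227; exact permutation p = 0.0515). Cyp2c54 ranged over 5.54, 6.50 and 7.35 in f-WS pups, against 5.64, 7.35 and 7.94 in f-LF pups, with a change of -0.74 ± 0.34 (adjusted p = 0.314; exact permutation p = 0.0555). Cyp2c37 ranged over 11.09, 11.39 and 12.00 in f-WS pups, against 11.30, 11.74 and 11.98 in f-LF pups, with a change of -0.19 ± 0.12 (adjusted p = 0.467; exact permutation p = 0.226). The groups overlapped for each of the 3 genes, by 4 of 6, 5 of 6 and 4 of 6 f-WS pups within the range of f-LF pups.

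The overlap in females followed the numbers of the arrays. For Cyp2c50, the 2 f-WS pups of number 39 were at 8.94 and 9.30, while the 4 of numbers 40 and 48 were between 8.06 and 8.38. Among f-LF pups, the 2 of number 50 were at 8.29 and 8.52 and the other 7 between 8.80 and 9.75. For Cyp2c54, number 39 was again highest among f-WS pups and number 50 lowest among f-LF pups. Its means were 7.01, 5.72 and 6.50 in f-WS pups of numbers 39, 40 and 48. In f-LF pups they were 7.41, 7.45 and 6.16 for numbers 37, 49 and 50. The female changes moved with the number left out. Without number 40 they shrank to -0.37 for Cyp2c50 (adjusted p = 0.645), -0.40 for Cyp2c54 and -0.049 for Cyp2c37, and without number 37 they were -0.40, -0.61 and -0.080, and none of these passed. Without number 50 the female change was -0.79 for Cyp2c50 (adjusted p = 0.0306) and -1.03 for Cyp2c54 (adjusted p = 0.0136), and without number 39 it was -0.89 for Cyp2c50 (adjusted p = 0.0806) and -0.40 for Cyp2c37 (adjusted p = 0.0689), and each of these passed. Leaving out 1 pup, Cyp2c50 passed in females without f-LF8 (-0.66), f-LF9 (-0.69) or f-WS2 (-0.74) and Cyp2c54 without f-LF9 (-0.93), and with array weights both passed (-0.71 and -0.83).

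In males the numbers were closer for Cyp2c50, at 7.83 and 8.01 for numbers 40 and 48 in m-WS pups, and at 9.50, 9.48 and 9.41 for 37, 49 and 50 in m-LF pups. Number 50 held both ends of the m-LF range, m-LF6 at 8.57 and m-LF5 at 10.25. The male change of Cyp2c50 was -1.495 without number 37 (limma, adjusted p = 0.0637) and -1.455 without number 40 (adjusted p = 0.0531). It was -1.64 without number 48 (adjusted p = 0.204), -1.51 without 49 (adjusted p = 0.0811) and -1.54 without 50 (adjusted p = 1.80e-04). Each of these passed, but only the last had an adjusted p under 0.05. With the number as a random block, the male change was -1.48 for Cyp2c50 (adjusted p = 0.0157), -1.51 for Cyp2c54 (adjusted p = 0.128) and -0.38 for Cyp2c37 (adjusted p = 0.218), and all 3 passed. Pups of 1 sex and number were also averaged into 1 value, a setting added after the data were seen. This left only the values of numbers 40 and 48 for m-WS and of 37, 49 and 50 for m-LF. The changes were then -1.55 for Cyp2c50 (limma, adjusted p = 0.383), -1.55 for Cyp2c54 (adjusted p = 0.383) and -0.44 for Cyp2c37 (adjusted p = 0.566), and Cyp2c50 and Cyp2c54 passed.

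Array names also begin with G073 (16 arrays) or G074 (11), and both prefixes occur in all 4 groups. Within G073 the male change was -1.58 for Cyp2c50 (adjusted p = 0.0484), -1.65 for Cyp2c54 and -0.28 for Cyp2c37, and within G074 it was -1.25, -1.18 and -0.54, with Cyp2c50 alone past the threshold in both. The female change of Cyp2c29 was -0.14 within G073, where it did not pass, and -0.54 within G074, where it did (limma, adjusted p = 0.756 and 0.35).

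**Figure D3:**
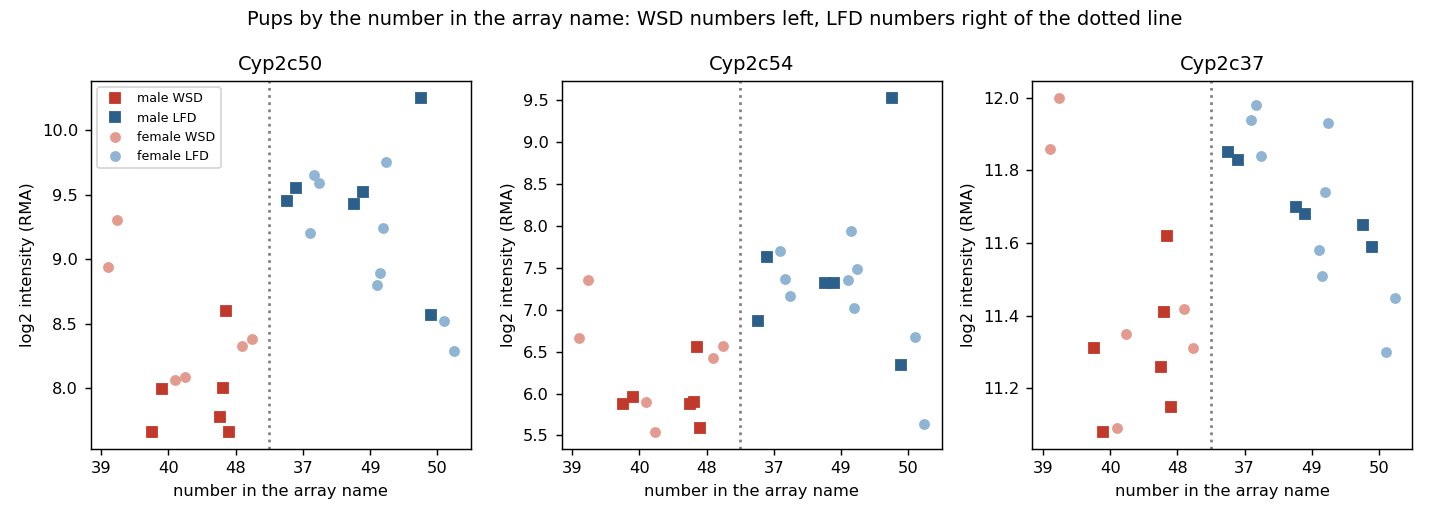
Log2 intensity of Cyp2c50, Cyp2c54 and Cyp2c37 in each pup by the number in its array name, with the 3 WSD numbers left and the 3 LFD numbers right of the dotted line (squares males, circles females). Female WSD pups of number 39 lie at the level of LFD pups (8.94 and 9.30 for Cyp2c50), and female LFD pups of number 50 lie low (8.29 and 8.52).

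The changes of the trio did not pass a test of the difference between the sexes. For Cyp2c50 the male change was lower than the female change by 0.93 ± 0.34 on the log2 scale (log2 difference -0.93; limma interaction, adjusted p = 0.394), for Cyp2c54 the difference was -0.80 ± 0.51 (adjusted p = 0.628) and for Cyp2c37 -0.22 ± 0.17 (adjusted p = 0.701). None of the 8 members reached p of 0.01 in this comparison, where 2.5% of all genes did, and 2 had p under 0.05, where 9.81% of all genes did. Without m-WS1 and m-LF6 the difference for Cyp2c50 was -1.05 and passed (adjusted p = 0.250), as it did under 10 of 48 alternatives in all, among them the fits without m-LF6 alone (-1.11) or without number 37 or 40.

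Cyp2c29, an epoxygenase of arachidonic acid that is abundant in mouse liver and induced through CAR in adults, was the member that fell in females. It ranged over 10.72, 10.99 and 11.41 in f-WS pups, against 11.12, 11.31 and 11.49 in f-LF pups, and 4 of 6 f-WS pups lay below every f-LF pup. The mean was 11.05 ± 0.28 in f-WS pups (SD, n = 6) and 11.33 ± 0.12 in f-LF pups (SD, n = 9), a change of -0.28 ± 0.09 (SE), or 1.21-fold lower (limma, adjusted p = 0.168; exact permutation p = 0.0268). The 2 f-WS pups of number 48 were at 11.32 and 11.41, within the f-LF range, and the 4 of numbers 39 and 40 between 10.72 and 11.09. The change was -0.15 without number 40 (adjusted p = 0.612) and -0.44 without number 48 (adjusted p = 0.0284). In 7 of the fits that left out 1 pup it did not pass, with the smallest change without f-WS3 (-0.21, adjusted p = 0.355).

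In males Cyp2c29 ranged over 11.06, 11.35 and 11.62 in m-WS pups, against 10.99, 11.31 and 11.41 in m-LF pups, with a change of 0.09 ± 0.10 (SE; limma, adjusted p = 0.766; exact permutation p = 0.433). The difference between the male and the female change was 0.37 ± 0.14 (adjusted p = 0.409) and did not pass, but it passed under 8 of 48 alternatives, among them the fit without m-WS1 and m-LF6 (0.42, adjusted p = 0.291). On maternal WSD, Cyp2c29 was higher in males than in females by 0.30 ± 0.10 (adjusted p = 0.272), the only member of 8 to pass in that comparison, where 3.35% of all genes did. This was 0.32 without m-WS1 and m-LF6 (adjusted p = 0.267) and passed. On maternal LFD it was lower in males by 0.07 on average (log2 difference -0.07, adjusted p = 0.901), and none of the 8 members passed, where 1.37% of all genes did. The WSD comparison of the sexes shares its m-WS and f-WS pups with the diet comparisons.

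Cyp2c39 and Cyp2c38 lie next to Cyp2c29 and code for further fatty acid epoxygenases, of which Cyp2c39 also oxidises retinoic acid. Cyp2c39 ranged over 5.13, 5.47 and 5.93 in m-WS pups, against 5.23, 5.59 and 5.69 in m-LF pups (change -0.016 ± 0.16), and over 4.91, 5.33 and 5.64 in f-WS pups, against 4.83, 5.53 and 5.98 in f-LF pups (change -0.19 ± 0.15; exact permutation p = 0.929 in males and 0.286 in females). The m-WS pups lay on either side of all m-LF pups, 3 below and 3 above. Cyp2c38 lay between 2.51 and 3.24 in all 27 pups and under the intensity filter on every array, and no level is drawn from it.

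Cyp2c44 codes for an epoxygenase of liver and kidney. It ranged over 10.84, 11.20 and 11.34 in m-WS pups, against 11.22, 11.27 and 11.73 in m-LF pups (change -0.18 ± 0.09), and over 11.05, 11.14 and 11.49 in f-WS pups, against 10.99, 11.27 and 11.45 in f-LF pups (change -0.08 ± 0.08; exact permutation p = 0.158 in males and 0.324 in females). The value of 11.73 belonged to m-LF5, and without that pup the male change was -0.095.

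Cyp2c70 forms the muricholic acids, bile acids typical of mice. It ranged over 12.11, 12.32 and 12.38 in m-WS pups, against 12.09, 12.40 and 12.49 in m-LF pups (change -0.08 ± 0.06), and over 12.10, 12.23 and 12.34 in f-WS pups, against 12.28, 12.33 and 12.44 in f-LF pups (change -0.12 ± 0.05, limma adjusted p = 0.319; exact permutation p = 0.297 in males and 0.0204 in females). In females 4 of 6 f-WS pups lay below every f-LF pup, as was the case for Cyp2c29.

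Cyp2c55 codes for an enzyme best known from mouse colon. It ranged over 6.87, 7.24 and 7.42 in m-WS pups, against 6.27, 7.13 and 7.66 in m-LF pups (change 0.13 ± 0.17), and over 6.97, 7.14 and 7.69 in f-WS pups, against 6.66, 7.29 and 7.59 in f-LF pups (change 0.0021 ± 0.16; exact permutation p = 0.584 in males and 0.993 in females). In both sexes the f-WS or m-WS pups lay inside the range of their LFD counterparts, save f-WS5 at 7.69.

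No other probe set of the cluster above the intensity filter fell in males. The probe set shared by Cyp2c40, Cyp2c67, Cyp2c68 and Cyp2c69 ranged from 11.49 to 11.85 in m-WS pups, against 11.46 to 11.81 in m-LF pups (change -0.0021 ± 0.061), and from 11.52 to 11.75 in f-WS pups, against 11.50 to 11.79 in f-LF pups (change 0.030 ± 0.056; exact permutation p = 0.987 in males and 0.50 in females). Cyp2c67 and Cyp2c68, measured singly, changed by -0.024 ± 0.12 and -0.012 ± 0.063 in males and by 0.0039 ± 0.11 and 0.056 ± 0.057 in females (± SE), and neither passed. Cyp2c65 and Cyp2c66 lay between 2.05 and 3.59 in all pups and under the intensity filter. Cyp2c65 changed by -0.14 in males and -0.11 in females (exact permutation p = 0.361 and 0.0236). Cyp2c66 changed by -0.19 and -0.08 (exact permutation p = 0.0173 and 0.333), with 5 of 6 m-WS pups below every m-LF pup. At so low a signal nothing is drawn from these changes.

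How the members varied together around the group means is given as a description. Over the 27 pups, deviations from the 4 group means correlated at r = 0.77 between Cyp2c37 and Cyp2c50 (Spearman rho = 0.80), 0.77 between Cyp2c50 and Cyp2c54 (rho = 0.73) and 0.43 between Cyp2c37 and Cyp2c54 (rho = 0.52). The last of these was below the r of several pairs outside the trio. Cyp2c44, far from the trio, followed Cyp2c54 at 0.77 and Cyp2c50 at 0.54, Cyp2c55 followed Cyp2c70 at 0.61, Cyp2c29 followed its neighbour Cyp2c39 at 0.63, and Cyp2c70 ran against Cyp2c44 at -0.73. Part of this rests on m-LF5, which was highest for Cyp2c44, Cyp2c50 and Cyp2c54 and lowest for Cyp2c29, Cyp2c39, Cyp2c55 and Cyp2c70 among m-LF pups. Without it r was 0.86 for Cyp2c37 with Cyp2c50, 0.61 for Cyp2c37 with Cyp2c54 and 0.75 for Cyp2c50 with Cyp2c54. For Cyp2c44 it was 0.66 with Cyp2c54, 0.43 with Cyp2c50 and -0.60 with Cyp2c70. Cyp2c55 with Cyp2c70 dropped to 0.385, and Cyp2c29 with Cyp2c39 was at 0.61. Pups share array numbers and the same normalization, so that the points are not independent.

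**Figure D4:**
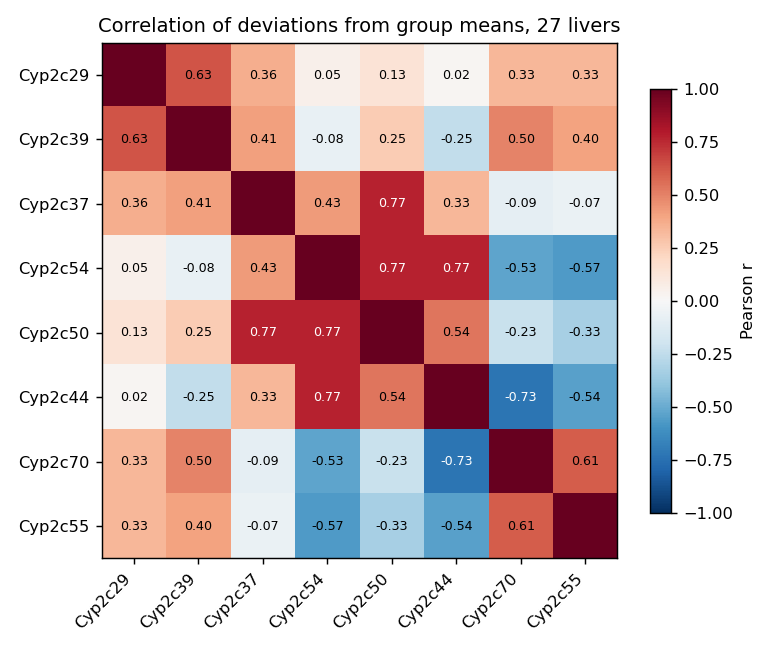
Pearson correlation between 8 Cyp2c members of their deviations from the 4 group means over 27 livers, with red for positive and blue for negative values. Cyp2c50 stands with Cyp2c37 and Cyp2c54 (0.77 each), Cyp2c44 with Cyp2c54 (0.77), and Cyp2c70 opposite Cyp2c44 (-0.73).

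Outside the family, the genes whose deviations were most like those of Cyp2c50 over the 27 pups were Eci2 (r = 0.89), an isomerase of fatty acid oxidation, Serpina7 (0.78), thyroxine-binding globulin, and Gfra1 (0.76), a co-receptor of GDNF. Nearest to Cyp2c37 were Hsd17b11 (0.91), a lipid droplet dehydrogenase, Fbxl17 (0.86) and Cyp4a31 (0.83). Nearest to Cyp2c54 were S1pr3 (0.82), a receptor of sphingosine phosphate, Serpina7 (0.82) and 2010003K11Rik (0.81). Nearest to Cyp2c29 were Baat (0.78), which conjugates bile acids, Cyp3a25 (0.76) and the carboxylesterase Ces2a (0.74). Of these, Cyp4a31 fell in males (-0.37 ± 0.08, limma adjusted p = 0.0274), Gfra1 fell in both sexes (-0.21, adjusted p = 0.129 in males and -0.19, adjusted p = 0.165 in females) and Baat fell in females (-0.45, adjusted p = 0.164). The male calls of Cyp4a31 (-0.44) and Gfra1 (-0.25) stood without m-WS1 and m-LF6, where Serpina7 fell in males too (-0.65, adjusted p = 0.0862).

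Among 19 other drug-metabolising P450 enzymes tested, 2 rose and 6 fell in males, and 1 rose and 1 fell in females, beside the 3.02% of all genes that rose and 2.6% that fell in males and the 3.6% and 1.59% in females. In the short lists below, 1 or 2 calls are too few to be set against these shares. Cyp2b10, the classical target of CAR, rose in males to 8.13 in m-WS pups, against 6.34 in m-LF pups (log2 change 1.78 ± 0.31, limma adjusted p = 0.00700), opposite in sign to the trio, and in females its change was 0.54 ± 0.29 (adjusted p = 0.390). Cyp2d13 (-0.68, adjusted p = 0.00270), Cyp2d9 (-0.48, adjusted p = 0.0392), Cyp2b13 (-0.61, adjusted p = 0.0850) and Cyp3a16 (-0.34, adjusted p = 0.131) fell in males, while Cyp3a44 fell in males (-0.40, adjusted p = 0.0812) and rose in females (0.32, adjusted p = 0.161). Cyp2f2 fell in females (-0.35, adjusted p = 0.176). Cyp2b10 changed by 2.08 without m-WS1 and m-LF6, and these male calls stood, while 1 of the 19 rose, since Cyp3a13 did not pass (0.24). The median change of these 19 enzymes was -0.14 in males and -0.02 in females, beside 0.0073 and 0.014 over all genes.

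Of 12 other enzymes of epoxide and arachidonic acid metabolism, 2 fell in males, the fatty acid hydroxylases Cyp4a31 and Cyp4a14 (-0.37, adjusted p = 0.0837). In females Cyp2j5, a further epoxygenase, rose (0.22, adjusted p = 0.152) and Cyp4f15 fell (-0.16, adjusted p = 0.131). Of 24 transcription factors of drug metabolism, 15 were tested, among them PXR (Nr1i2), Nr1h4, Nr0b2 and Hnf4a. CAR (Nr1i3) had no probe set annotated to it alone, and its partner Rxra did not pass the filter on spread, so that neither was tested. Of the 15, 1 rose in males, the clock factor Tef (0.22, adjusted p = 0.0961), and none passed in females. Of 10 genes for electron donors and haem turnover, which P450 enzymes depend on, Blvrb fell in males (-0.36, adjusted p = 0.147) and Alad and Blvra rose in females (0.17, adjusted p = 0.178 and 0.16, adjusted p = 0.176). The male calls of this paragraph stood without m-WS1 and m-LF6, where Cyp2u1, of the epoxide list, rose too (0.48, adjusted p = 0.127).

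Pericentral markers moved with the male fall of the trio. Their mean level was 9.23 to 9.44 in m-WS pups, against 9.50 to 9.83 in m-LF pups, with no overlap, and 6 of 16 tested fell in males and none rose (Glul, glutamine synthetase, -0.67; Rhbg, -1.04; Slc1a4, -0.43, each at adjusted p of 0.0430 or below; Lgr5, Znrf3 and Gulo). In females the level was 9.44 to 9.80 in f-WS pups, against 9.24 to 9.89 in f-LF pups, and none passed. Periportal markers Hsd17b13, Aldh1b1 and Hal rose in males, 3 of 11, and Cyp2f2 alone passed in females, where it fell. The other 8 did not pass in males. Of these, Hsd17b6 (-0.23), Pck1 (-0.18), Cyp2f2 and Cdh1 lay lower with WSD, and Arg1 (0.15), Ctsc, Uroc1 and Igf1 lay higher. The periportal level overlapped in males, at 10.98 to 11.15 in m-WS pups, against 10.8 to 11.04 in m-LF pups. Around the group means, the pericentral level correlated with Cyp2c37 at 0.53, Cyp2c50 at 0.45, Cyp2c54 at -0.09 and Cyp2c29 at -0.11 over 27 pups.

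In males, where the trio fell, some markers of white blood cells rose and some of endothelium fell. Neutrophil and myeloid precursor markers averaged 5.79 to 6.40 in m-WS pups, against 5.21 to 6.48 in m-LF pups, and 4 of 14 rose in males (Ctsg, Cxcr2, Ltf and S100a9). B and T lymphocyte markers averaged 5.41 to 5.72 in m-WS pups, against 4.98 to 5.69 in m-LF pups, and 4 of 10 rose in males (Cd79a, Ebf1, Igll1 and Pax5). These 4 belong to the B lineage, whereas the T cell genes of the list were at -0.0056 (Cd3e), -0.15 (Cd3g), -0.15 (Cd4) and -0.14 (Cd8a) in males and did not pass. Endothelial markers averaged 8.05 to 8.25 in m-WS pups, against 8.24 to 8.51 in m-LF pups, and 4 of 12 fell in males (Clec4g, Rspo3, Vwf and Wnt2). General endothelial markers did not pass, with male changes of 0.0062 for Pecam1, 0.023 for Cdh5, -0.037 for Kdr and -0.0028 for Tek. None of 8 erythroid markers passed in males, and their level was 6.03 to 6.61 in m-WS pups, against 6.14 to 6.76 in m-LF pups. In females no marker of the myeloid, lymphocyte or endothelial list passed, and 1 of the 8 erythroid markers rose and 1 fell. The myeloid level was 5.52 to 6.40 in f-WS pups, against 5.40 to 6.57 in f-LF pups. Around the group means, the myeloid level correlated with Cyp2c37 at -0.73, with Cyp2c50 at -0.54 and with Cyp2c54 at -0.12, and the lymphocyte level at -0.52, -0.74 and -0.56 in the same order. Without m-WS1 and m-LF6 the pericentral, periportal and endothelial calls in males stood, 3 myeloid markers rose, without Ltf, 6 lymphocyte markers rose, with Cd79b and Ms4a1 added, and 1 erythroid marker fell (Tfrc, -0.22). The part of these cell markers in the changes of the Cyp2c genes was not tested.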

How the data were processed

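Liver RNA of 27 pups was hybridised to 1 array each. The deposited values are log2 intensities per probe set, which the authors made by RMA in AffyPLM at default settings (version not given in the sources used here), and the whole table of 35556 probe sets was used. The sources describe probe sets redefined to Entrez genes, whereas the table holds those of the manufacturer, named here through the platform annotation. Of these, 21218 name 1 gene, 1881 several and 12457 none, and 21185 symbols were updated by Entrez identifier. A gene was represented by its single-gene probe set with the highest mean. The table lists Cyp2c44 under another symbol, Cyp2c23.

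The filters of the study (intensity 20 or more in 4 or more pups, interquartile range 0.1 or more) left 10810 of 18820 genes. The model, in limma 3.58.1 under R 4.3.3, had a mean for each of the 4 groups and an intensity trend, and was checked on simulated data. A gene passed at p of 0.01, the threshold of the study, and Benjamini-Hochberg values over all 10810 genes stand beside it. The diet comparison of each family probe set within each sex was also made by an exact permutation test (SciPy 1.17.1, Python 3.11.15), figures were drawn with matplotlib 3.10.9, and promoter windows were aligned with Biopython 1.88. The alternatives concerned filters, prior variance, normalization, weights, blocks, array numbers, array prefixes, left-out pups and probe sets. Replicate numbers were not used as pairs, since same-numbered pups correlated at r between -0.255 and 0.264.

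Members and lists were chosen with earlier results of these data known. Named are all members and other Cyp2c genes, and genes of the lists of transcription factors and of electron donors that passed. Up to 6 per sex are named from the other P450 and epoxide lists, and up to 3 per sex of pericentral and periportal markers. The 3 genes most like each member that passed, and markers of cell types that moved with or against a member, are also named.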

Additional observations from a re-analysis of the deposited data

Results flagged for a closer look

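In 5 of 48 groups of pups examined, over 12 probe sets of the family, the highest or lowest pup stood apart from the rest of its group by Dixon's criterion, which chance meets in about 1 of 20 groups. Of these, 2 concern m-LF5: Cyp2c44 was at 11.73, against 11.22 to 11.29 in the other m-LF pups, and Cyp2c70 was at 12.09, against 12.37 to 12.49. This pup also had the lowest mean of hepatocyte markers (12.20) and the highest of neutrophil and myeloid precursor markers (6.48) among the males, and what part these have in its values was not tested. Cyp2c50 in m-WS5 was at 8.60, against 7.66 to 8.00 in the other m-WS pups. Cyp2c44 in f-LF9 was at 10.99, against 11.24 to 11.45 in the other f-LF pups, and Cyp2c55 in f-WS5 was at 7.69, against 6.97 to 7.23 in the other f-WS pups.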

How the results depend on the processing

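Each comparison was repeated under 49 alternatives (48 for comparisons across the sexes). Cyp2c50 in males passed at p of 0.01 under all 49 (log2 change -1.69 to -1.25). Cyp2c54 in males passed under 47, Cyp2c37 in males under 41 and Cyp2c29 in females under 36, and these 4 kept their sign throughout. Adjusted p-values (limma) ran from 1.80e-04 to 0.998 for Cyp2c50 and from 0.00257 to 0.998 for Cyp2c54 in males. They ran from 0.0223 to 0.998 for Cyp2c37 in males and from 0.0284 to 0.756 for Cyp2c29 in females. No cause of a change of call was tested, and fits that left pups out also had fewer pups.

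With arrays of prefix G073 alone, 377 genes passed in males and 199 in females, 93 for the difference between the sexes and 82 between the sexes on WSD, the changes were -0.28 for Cyp2c37 and 0.11 for Cyp2c39 in males and -0.14 for Cyp2c29 in females, and the difference between the sexes was -0.0012 for Cyp2c70. With prefix G074 alone, 74 passed in males, 208 in females, 72 for the difference and 38 between the sexes on LFD, the changes were -0.54 for Cyp2c37, -1.18 for Cyp2c54, -0.15 for Cyp2c29 and -0.26 for Cyp2c55 in males and -0.15 for Cyp2c55 in females, and the difference for Cyp2c55 was -0.11.

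Leaving out array number 37 left 400 genes in males, with -0.35 for Cyp2c37 in males and -0.21 for Cyp2c29 and -0.099 for Cyp2c55 in females. Without number 39, 186 passed between the sexes on WSD, Cyp2c29 changed by -0.25 in females, and the differences between the sexes were 0.0079 for Cyp2c44 and -0.020 for Cyp2c70. Without number 40, 326 passed in females, 103 for the difference and 186 between the sexes on WSD, with -0.36 for Cyp2c37 and 0.14 for Cyp2c39 in males and -0.15 for Cyp2c29 in females. Without number 48, 324 passed in males, with -0.52 for Cyp2c37, -1.59 for Cyp2c54, -0.032 for Cyp2c29 and -0.051 for Cyp2c55 in males, -0.12 for Cyp2c55 in females, and differences of -0.0094 for Cyp2c39, 0.039 for Cyp2c44 and -0.028 for Cyp2c70. Without number 49, 349 passed in males, 169 in females, 159 for the difference and 72 between the sexes on LFD, with -0.43 for Cyp2c37 and 0.038 for Cyp2c39 in males and -0.30 for Cyp2c29 in females. Without number 50, 965 passed in males and 343 between the sexes on LFD, with differences of 0.029 for Cyp2c44 and -0.037 for Cyp2c70.

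With pups of 1 sex and number averaged, added after the data were seen, 242 genes passed in males, 175 in females, 99 for the difference, 143 between the sexes on WSD and 53 on LFD, with -0.44 for Cyp2c37 in males and -0.27 for Cyp2c29 and -0.0018 for Cyp2c55 in females. Without m-LF6 and m-WS1, likewise added, 240 passed between the sexes on LFD and Cyp2c39 changed by 0.063 in males. With no filters 223 passed between the sexes on LFD. Array weights let Cyp2c50 (-0.71) and Cyp2c54 (-0.83) pass in females and gave 0.0012 for Cyp2c39 in males and -0.057 for Cyp2c55 in females, the array prefix as a block gave 0.031 for Cyp2c39 in males, and Cyp2c55 in females was at -0.019 after median centring and at -0.023 after a repeated quantile normalization, with which Cyp2c70 passed in females (-0.16).

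Leaving out 1 pup at a time gave 85 to 252 genes between the sexes on LFD (lowest without m-LF4, highest without m-LF6), and changes of -0.47 to -0.37 for Cyp2c37, -0.10 to 0.059 for Cyp2c39 and -0.030 to 0.25 for Cyp2c55 in males, of -0.35 to -0.21 for Cyp2c29 and -0.092 to 0.052 for Cyp2c55 in females, and of -0.032 to 0.25 for Cyp2c55 and -0.020 to 0.072 for Cyp2c70 in the difference between the sexes. Calls in females were gained without f-LF8, f-LF9 or f-WS2 for Cyp2c50 and without f-LF9 for Cyp2c54. Cyp2c37 in males lost its call without m-WS2, and Cyp2c29 in females without f-LF1, f-LF2, f-LF3, f-LF4, f-WS2, f-WS3 or f-WS4.

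The replicate number does not pair these pups: 1 of 6 male and 2 of 6 female pairs correlated best with their own number. With the replicate block, 651 genes passed in males and 566 in females, Cyp2c50 and Cyp2c54 in females passed at -0.71 (limma, adjusted p = 0.129) and -1.02 (adjusted p = 0.117), and no other call of a member on diet changed. Low signal left 3 of the family's single-gene probe sets (Cyp2c38, Cyp2c65 and Cyp2c66) without a test, and the diets share no array number, so that no change can be had within a number.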

Other observations

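Of 6 gut epithelium markers tested, from a list set beside Cyp2c55, 1 rose with maternal WSD in males (Krt20) and 2 in females (Krt20 and Fabp2). Of all genes, 3.02% and 3.6% rose. The other genes tested did not pass in either sex. Their changes in males and females were 0.15 and -0.38 (Tff3), -0.22 and -0.030 (Lgals4), -0.19 and -0.16 (Apoa4), and 0.057 and 0.0028 (Cdx1). Vil1, Cdx2, Cdh17, Muc2 and Lct stayed under the intensity filter. Krt20, an intermediate filament keratin, averaged 7.20 in m-WS pups and 6.01 in m-LF pups (log2 change 1.19 ± 0.17, limma adjusted p = 9.32e-04), and 7.12 in f-WS pups and 6.21 in f-LF pups (0.91 ± 0.15, adjusted p = 0.00704). Fabp2, the intestinal fatty acid binding protein, averaged 10.11 in f-WS pups and 9.59 in f-LF pups (0.52 ± 0.09, adjusted p = 0.00701), while its change in males was 0.21 ± 0.09 (adjusted p = 0.278). Without m-WS1 and m-LF6 the male changes were 1.21 for Krt20 (adjusted p = 0.00131) and 0.28 for Fabp2 (adjusted p = 0.129), and both passed. The mean level of the 11 gut markers was 5.81 to 5.92 in m-WS pups and 5.60 to 6.08 in m-LF pups, and 5.80 to 5.89 in f-WS pups and 5.65 to 5.99 in f-LF pups.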
